A study of Mus musculus with 4 samples.

Results

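In molar tooth germs taken from CD1 wild-type mice at E13.5 (embryonic day), CUT&RUN gave 1007 peaks that were marked by antibodies against both branches of Smad signalling, that had ordinary signal, and that lay in or at a gene. They were chosen from the deposited peak lists in 3 steps. A pSmad1/5 peak on chromosomes 1 to 19 was kept if its maximum signal was at most 32, which is 2 times the median of its list (16). It had to share at least 1 bp with a pSmad3 peak whose maximum was at most 26, again 2 times the list median (13). Its midpoint had to lie inside a protein-coding or lncRNA gene of RefSeq or within 1 kb of one. The 1007 shared peaks came from 10741 pSmad1/5 peaks, of which 9668 were ordinary peaks on these chromosomes, and they met 887 of the 7905 pSmad3 peaks. Of the ordinary pSmad1/5 peaks in or at genes (6422), 15.7% were shared by this rule, against 16.7% of those between genes (541 of 3246). Both shares follow from the values that chose the peaks and carry no test.

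The study made duplicate CUT&RUN libraries for each antibody, 4 in all: one set with an antibody against phosphorylated Smad1/5 (Cell Signaling Technology #11971) and one with an antibody against phosphorylated Smad3 (Abcam #ab52903). CUT&RUN releases the DNA around an antibody-bound protein with micrococcal nuclease, here for 30 min on digitonin-permeabilised cells, and the fragments were sequenced as 100 bp read pairs. All libraries came from enzymatically dissociated whole tooth germs, so the peaks stand for a mix of epithelial, mesenchymal and other cells, and the labels do not say how many embryos were pooled. One list per antibody is analysed here, deposited under the name of common peaks. Values per library were not used here, read depth is unknown, and no result has a replicate check. Each line of a list is called a peak. Lines that repeat the same total, maximum and position of the maximum are pieces of 1 call, and the 1007 shared peaks were pieces of 852 calls. The signal values are the authors', are given per call, and are compared only within a list.

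BMP receptors phosphorylate Smad1 and Smad5, and the receptors for TGF-β and activin phosphorylate Smad3. Each Smad then joins Smad4 and enters the nucleus, where Smad complexes bind short DNA elements and act with other transcription factors. In the early tooth, BMP signals pass between the dental epithelium and the condensing mesenchyme, and TGF-β family signals act in the same tissues. Binding of both Smad classes at one place can therefore be asked of peaks that overlap, while the lists cannot say whether both were bound in the same cell.

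The shared peaks at gene starts are the ones for which DNA could be read, since RefSeq promoter windows of 300 bp (250 before the start to 50 after it, GRCm38.p6, the assembly also called mm10) were at hand. Of the 887 genes with a shared peak, 719 had a window in the table, which covered 18 of the 19 chromosomes. A window lay wholly inside the stretch common to a shared peak and its pSmad3 peak for 86 of 31396 windows (0.274%), from 77 genes, and for 68 of 20085 windows of protein-coding genes (0.339%). Windows of 9 genes are printed 5′ to 3′ in the direction of transcription. The first 5 are those the naming rule gave, at genes with the highest pSmad3 maxima. The last 4 were chosen after their values were seen, as genes with well known products. Capitals mark the letters searched on either strand: the Smad-binding element core CAGAC (or GTCTG), the GC-rich boxes GGCGCC and GGAGCC (or GGCTCC), and the AP-1 site TGANTCA.

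Gm21663: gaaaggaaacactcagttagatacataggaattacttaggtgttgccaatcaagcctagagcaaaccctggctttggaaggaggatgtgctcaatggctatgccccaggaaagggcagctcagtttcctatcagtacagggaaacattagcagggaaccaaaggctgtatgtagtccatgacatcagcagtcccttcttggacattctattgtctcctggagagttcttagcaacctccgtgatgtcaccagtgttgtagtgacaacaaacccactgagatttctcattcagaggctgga
H2-D1: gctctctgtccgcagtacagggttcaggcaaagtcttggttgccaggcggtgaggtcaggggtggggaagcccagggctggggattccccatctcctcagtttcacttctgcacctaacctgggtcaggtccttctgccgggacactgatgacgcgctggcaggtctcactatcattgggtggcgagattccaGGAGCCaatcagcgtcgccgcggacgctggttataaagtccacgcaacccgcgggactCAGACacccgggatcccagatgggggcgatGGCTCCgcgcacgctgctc
Gm3667: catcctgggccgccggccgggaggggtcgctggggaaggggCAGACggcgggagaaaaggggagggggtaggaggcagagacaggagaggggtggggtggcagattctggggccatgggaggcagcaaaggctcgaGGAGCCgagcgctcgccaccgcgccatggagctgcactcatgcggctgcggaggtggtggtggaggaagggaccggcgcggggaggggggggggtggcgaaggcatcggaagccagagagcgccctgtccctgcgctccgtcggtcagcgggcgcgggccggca
Smok2b: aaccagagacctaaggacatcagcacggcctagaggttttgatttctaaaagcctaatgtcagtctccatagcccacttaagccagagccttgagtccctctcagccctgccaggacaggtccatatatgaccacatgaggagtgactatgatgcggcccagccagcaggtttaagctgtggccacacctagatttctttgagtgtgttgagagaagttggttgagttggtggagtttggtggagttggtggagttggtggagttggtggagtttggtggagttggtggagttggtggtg
Mup2: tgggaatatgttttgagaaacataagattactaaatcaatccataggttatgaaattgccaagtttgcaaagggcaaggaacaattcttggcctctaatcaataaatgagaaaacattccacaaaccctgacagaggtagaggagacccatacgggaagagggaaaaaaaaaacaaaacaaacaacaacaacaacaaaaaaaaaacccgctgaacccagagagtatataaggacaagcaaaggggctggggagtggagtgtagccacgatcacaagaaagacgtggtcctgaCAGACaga
Irs1: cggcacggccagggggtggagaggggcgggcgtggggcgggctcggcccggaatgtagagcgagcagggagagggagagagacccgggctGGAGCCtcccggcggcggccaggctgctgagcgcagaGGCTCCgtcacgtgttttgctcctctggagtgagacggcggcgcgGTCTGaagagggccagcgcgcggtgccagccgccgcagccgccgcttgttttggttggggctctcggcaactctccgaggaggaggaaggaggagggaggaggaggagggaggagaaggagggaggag
Nr4a1: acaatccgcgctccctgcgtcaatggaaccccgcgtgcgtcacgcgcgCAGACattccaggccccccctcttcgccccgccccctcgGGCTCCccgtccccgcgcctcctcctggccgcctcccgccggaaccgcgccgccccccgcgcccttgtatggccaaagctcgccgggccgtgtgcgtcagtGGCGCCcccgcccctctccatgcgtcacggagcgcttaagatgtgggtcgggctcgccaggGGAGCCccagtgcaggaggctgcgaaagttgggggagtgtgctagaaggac
Gpx4: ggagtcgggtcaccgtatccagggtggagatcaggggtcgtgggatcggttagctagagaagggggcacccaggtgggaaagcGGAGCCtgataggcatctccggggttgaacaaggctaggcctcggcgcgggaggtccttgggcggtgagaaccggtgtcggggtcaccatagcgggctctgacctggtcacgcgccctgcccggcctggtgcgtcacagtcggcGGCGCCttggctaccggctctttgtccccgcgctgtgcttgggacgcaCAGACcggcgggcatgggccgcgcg
Cnr1: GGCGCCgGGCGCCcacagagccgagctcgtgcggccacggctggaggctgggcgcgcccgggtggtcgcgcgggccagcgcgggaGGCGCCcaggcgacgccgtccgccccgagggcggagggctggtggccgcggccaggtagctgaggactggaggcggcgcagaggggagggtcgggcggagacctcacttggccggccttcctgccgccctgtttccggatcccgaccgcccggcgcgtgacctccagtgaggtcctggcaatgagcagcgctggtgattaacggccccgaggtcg

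These windows differ widely in base composition. The window of Gm21663 (chr5:25942317-25942616, minus strand), a predicted gene, held 46.7% G and C with 1 CpG, and that of Mup2 (chr4:60139807-60140106, minus strand), which encodes a major urinary protein, held 40.7% with 4 CpG. The window of Smok2b (chr17:13230013-13230312, plus strand), a sperm motility kinase gene, held 51.0% with 2 CpG and none of the searched letters. The window of H2-D1 (chr17:35262844-35263143, plus strand), an MHC class I gene, held 62.3% with 19 CpG, and that of the predicted gene Gm3667 (chr14:6889882-6890181, minus strand) held 73.0% with 27 CpG. The windows chosen later were richer in CpG. Irs1 (chr1:82291390-82291689, minus strand), an adaptor of the insulin receptor, had 28 CpG. Nr4a1 (chr15:101266596-101266895, plus strand), an early-response nuclear receptor, had 35. Gpx4 (chr10:80053761-80054060, plus strand), a glutathione peroxidase that protects lipids, had 29. Cnr1 (chr4:33924014-33924313, plus strand), a cannabinoid receptor, had 40, with 3 copies of GGCGCC.

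Over all 86 windows in the shared stretch, the searched letters were about as frequent as in all promoters of the table. CAGAC was present in 52.3% of the shared windows (exact 95% Clopper-Pearson interval 41.3 to 63.2), against 48.9% of windows inside pSmad1/5 peaks that met no pSmad3 peak and 49.6% of all windows. GGCGCC was present in 11.6% (5.72 to 20.3), against 16.9% inside pSmad1/5-only peaks and 12.1% of all windows. GGAGCC was present in 31.4% (21.8 to 42.3), against 42.1% inside pSmad1/5-only peaks and 31.2% of all. TGANTCA was present in 8.14% (3.34 to 16.1), against 8.20% inside pSmad1/5-only peaks and 7.84% of all. The share of G and C had a median of 56.5% in the shared windows, 58.7% in the pSmad1/5-only windows and 53.0% in all, and the median number of CpG was 7.5 in the shared windows, 16 in the pSmad1/5-only windows and 7 in all. Windows inside pSmad3-only peaks had CAGAC in 53.8%, GGCGCC in 14.9%, GGAGCC in 40.0% and TGANTCA in 8.15%, with a median of 11 CpG. Among protein-coding genes CAGAC was present in 45.6% of the 68 shared windows, against 48.4% of all windows. Their median number of CpG was 11 in the shared windows and 14 in all. The intervals cover counting error only, and a match of letters does not mark a bound site. Hairpins of 4 miRNAs lay in a shared stretch: Mir7664, Mir7658, Mir7030 and Mir8094.

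Each promoter window printed above lay in a pair of overlapping peaks. At Irs1 the pSmad1/5 peak (chr1:82289459-82292036) had a maximum of 15 and the pSmad3 peak (chr1:82288630-82293154) a maximum of 18, the first below its list median and the other above it. At Nr4a1 the pSmad1/5 peak (chr15:101265588-101268465) had a maximum of 17 and the pSmad3 peak (chr15:101263377-101267565) one of 13, with 1978 bases in common. At Gpx4 the pSmad1/5 peak (chr10:80053471-80055502) had a maximum of 14, reached outside the peak and below the list median, and the pSmad3 peak (chr10:80053678-80061918) one of 13. High maxima could not occur among these peaks, since the rule sets a ceiling. At Cnr1 the maxima were 18 for pSmad1/5 and 13 for pSmad3, with 2520 shared bases. At H2-D1 the whole pSmad1/5 peak (chr17:35259467-35267741), with a maximum of 20, lay under a pSmad3 peak of 29401 bp with a maximum of 24. The gene is 4.40 kb long, so both of its ends fell inside the pair.

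Starts were not the usual place for a shared peak. Midpoints were inside a gene in 94.6% of the shared peaks (953 of 1007) and 94.7% of the pSmad1/5-only peaks in or at genes. The rule kept only midpoints in or close to a gene, so this share is not read as a result. Gene ends were at most 1 kb from the midpoint in 17.1% of the shared peaks (14.8 to 19.5). For the pSmad1/5-only peaks in or at genes this share was 16.8% (15.9 to 17.9). A RefSeq start lay inside 11.04% of the shared peaks (9.16 to 13.2, 110 of 996 on chromosomes with windows), against 9.86% (9.06 to 10.7) of pSmad1/5-only peaks. These intervals overlap. The median distance to the nearest RefSeq start was 11.7 kb (quartiles 3.95 to 31.4), against 14.5 kb for pSmad1/5-only peaks. Of the pSmad3 peaks that met the shared peaks, 20.7% covered a start (18.03 to 23.5), against 14.1% (13 to 15.2) of pSmad3-only peaks in or at genes. The pSmad3 peaks that were shared were also the wider ones, with a median of 5343 bp against 4465 bp for pSmad3-only peaks, and a wider peak covers more of the genome. The part of width in the start share was not tested. A protein-coding gene was present at 91.8% of the shared peaks (89.9 to 93.4), against 88.0% (87.1 to 88.8) of the pSmad1/5-only peaks, and 83 shared peaks had a lncRNA gene alone. The plot of shares by overlap and position shows these values.

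**Figure D1:**
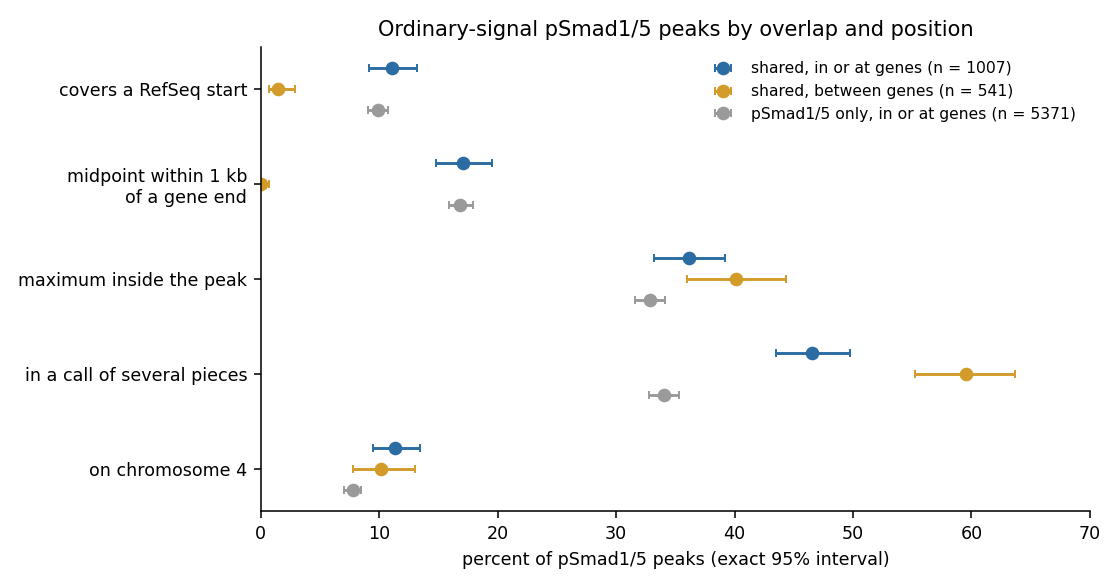
Percent of ordinary-signal pSmad1/5 peaks with each feature (horizontal axis, exact 95% interval as a bar), for 1007 shared peaks in or at genes (blue), 541 shared peaks between genes (amber) and 5371 pSmad1/5-only peaks in or at genes (grey). The shared peaks in genes stand beside the pSmad1/5-only peaks for starts and gene ends (17.1% against 16.8%), and between the other groups for calls of several pieces (46.6%). A maximum counts as inside the peak if its region overlaps the peak by at least 1 bp.

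Within protein-coding genes the shared peaks lay towards the 3′ end. Each protein-coding gene body with a known strand was divided into 5 equal parts, giving 717 pairs of a shared peak and a gene. From the 5′ to the 3′ end the parts held 17.4%, 16.2%, 16.5%, 22.04% and 27.9% of them. The part at the 3′ end had an interval of 24.6 to 31.3, against 24.8% (23.4 to 26.3) for pSmad1/5-only peaks and 24.3% (22.7 to 25.9) for pSmad3-only peaks. The excess at the 3′ end was thus present in every class, and the intervals overlap.

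The signal of the shared peaks was ordinary by the rule and is given as a description. Their maximum had a median of 17 (quartiles 15 to 19, range 11 to 32), against 20 for shared peaks between genes and 16 for pSmad1/5-only peaks in or at genes. Their total signal had a median of 69954, against 82856 for shared peaks between genes and 51459 for pSmad1/5-only peaks, and it reached the median of the whole list in 66.2% of them. The pSmad3 peaks that met them had a median maximum of 14 (12 to 16, range 8 to 26), against 13 for pSmad3-only peaks, and a median total of 32178 against 27208. In both lists the shared peaks stood slightly above the unshared peaks in genes, and the plot of maxima shows the distributions largely on top of each other. Over the 1013 overlapping pairs the maxima of the antibodies had a Spearman rho of 0.38, and over 555 pairs between genes 0.57. The rule cut these maxima at 32 and 26. Their spread also differed, with pSmad1/5 quartiles of 15 to 19 in or at genes and 16 to 25 between genes. The rho values are therefore not read as a difference between the groups. The maxima are those of whole calls, and both regions of maximum reached into the common stretch in only 15.7% of the 1013 pairs. Pieces of 1 call repeat a value, and the part of mappability and base composition in the rho was not tested.

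**Figure D2:**
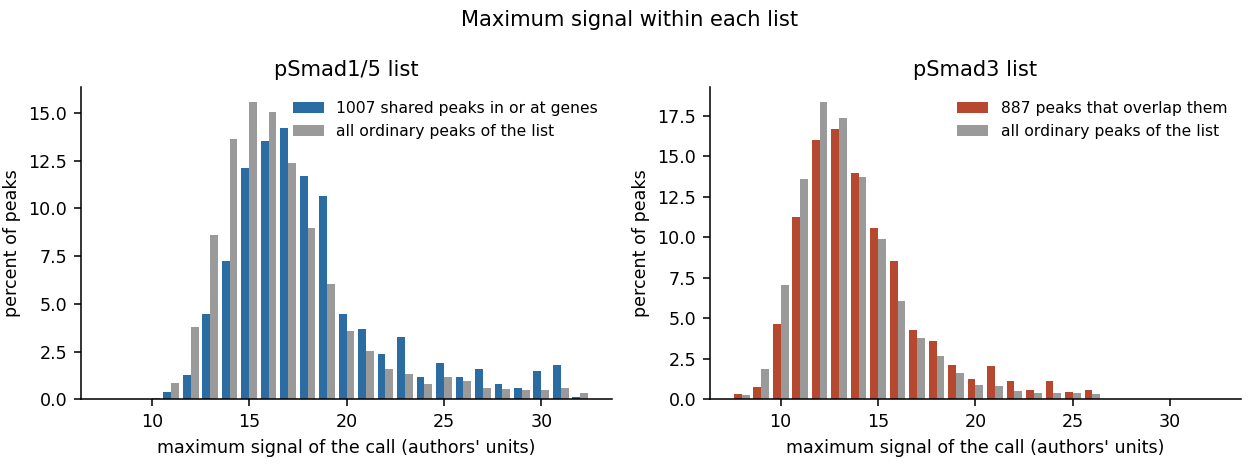
Percent of peaks (vertical axis) at each maximum signal of the call, in the authors' units (horizontal axis), for the pSmad1/5 list (left) and the pSmad3 list (right), with the peaks of shared pairs in colour and all ordinary peaks in grey. The 1007 shared pSmad1/5 peaks have a median of 17 against 16 for all ordinary peaks, and the 887 pSmad3 peaks a median of 14 against 13.

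At the ceiling of the rule, the highest pSmad1/5 maximum of a shared peak was at the predicted gene Gm3476 (32), and Mup5, a urinary protein gene, and Gm7592 were among several genes at 31. Peaks just outside it were at Alad (33), Gm47990 (33) and Prl2c3 (34). Of the pSmad3 peaks, those at Zfp981, Ahnak2 and Sema5b were just inside (26) and those at Gm26630 (27) and Zfp978 (28) just outside. Over the ceiling were 842 of 10510 pSmad1/5 peaks and 391 of 7785 pSmad3 peaks. Another 44 ordinary pSmad1/5 peaks in or at genes met only pSmad3 peaks over the ceiling and are not counted.

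Among all ordinary peaks, those of pSmad1/5 were narrower than those of pSmad3, with medians of 2362 bp and 4676.5 bp. The shared pSmad1/5 peaks were likewise narrower than the pSmad3 peaks that they met. Their median width was 2503 bp (2011 to 3230, range 8 to 13776), against 2782 bp for shared peaks between genes and 2322 bp for pSmad1/5-only peaks. A median of 94.8% of a shared peak lay under pSmad3 peaks, and 46.4% of the shared peaks (467) lay wholly under them. Of a pSmad3 peak, a median of 37.5% was covered (22.1 to 56.0). The stretch in common had a median of 1912 bp (1026 to 2599), but 29 shared peaks had fewer than 100 bases in common with the other list and 132 had fewer than 500. Nearly all shared peaks (1001) met 1 pSmad3 peak and 6 met 2, while 85 pSmad3 peaks met 2 shared peaks, 13 met 3 and 5 met 4. Widths within a pair were unrelated, with a Spearman rho of 0.017 over 1013 pairs. Peaks of calls in several pieces made up 46.6% of the shared peaks (43.5 to 49.7). They made up 59.5% (55.2 to 63.7) of those between genes and 34.0% (32.8 to 35.3) of the pSmad1/5-only peaks. Some peaks that were the only piece of their call, as at Gli2 and Smad5, also had the maximum outside the peak. The part of calls in several pieces in the overlap was not tested.

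The summits of a pair were seldom at one place. The midpoints were a median of 1732 bp apart (778 to 2905). The region of maximum signal lay inside the peak for 36.1% of shared pSmad1/5 peaks (33.2 to 39.2) and 81.8% of their pSmad3 peaks (79.2 to 84.3), so that 308 pairs had both. There the maxima were a median of 1934.5 bp apart (696.75 to 3624.25), and 56 pairs (18.2%, 14.0 to 23.0) had them within 500 bp. Between genes the share was 18.5% (13.3 to 24.8). Both regions of maximum lay at least partly in the common stretch in 159 of the 1013 pairs (15.7%). Overlap of these peaks thus says that enriched stretches met, not that the summits coincided.

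**Figure D3:**
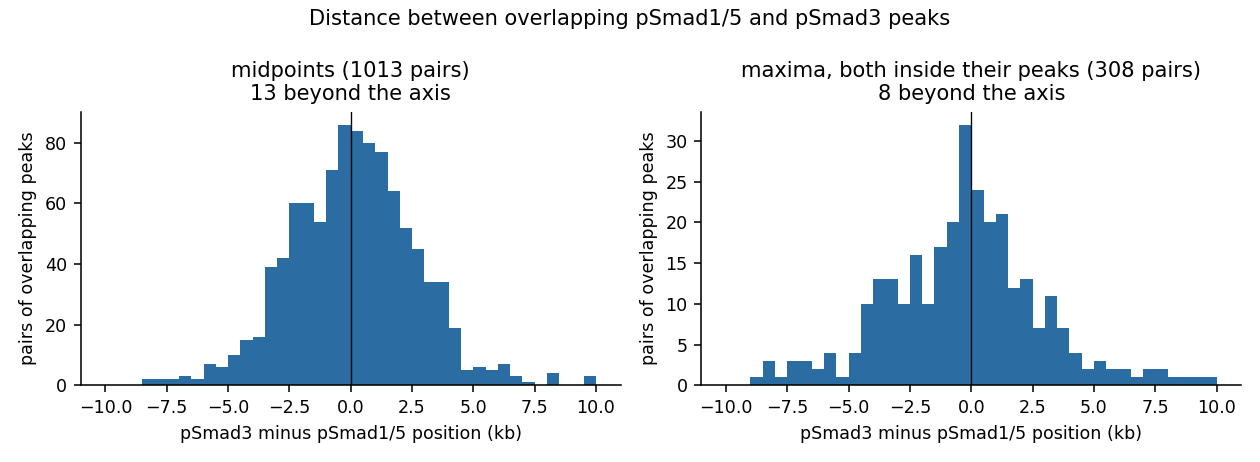
Number of pairs (vertical axis) by distance from the pSmad1/5 to the pSmad3 peak in kb along the chromosome (horizontal axis, 0.5 kb bins). Midpoints of the peaks of 1013 pairs are on the left. Midpoints of the regions of maximum are on the right, for the 308 pairs with both regions at least partly inside their peaks. Distances spread on both sides of 0, with 56 of the 308 pairs of maxima within 500 bp, and 13 and 8 pairs lie beyond the axis.

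The shared peaks lay at 759 of 20560 protein-coding genes (3.69%) and 128 of 12324 lncRNA genes (1.04%). By the same midpoint rule an ordinary pSmad1/5 peak was at 18.1% of protein-coding genes and an ordinary pSmad3 peak at 15.6%. Both were at 7.69% (1582 genes), and 694 of these (43.9%) had a shared peak. At the other 888 the ordinary peaks of the antibodies did not overlap, and 65 genes had a shared peak whose pSmad3 midpoint lay outside the gene. Most genes (625) had 1 shared peak, 99 had 2, 18 had 3 and 17 had 4 or more. Genes with a shared peak had a median length of 35.7 kb, against 17.6 kb for all protein-coding genes, and a longer gene offers more room for a peak. The part of gene length in the counts was not tested.

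Among components of the BMP and TGF-β pathways, 1 of 45 genes had a shared peak (2.22%), beside 3.69% of all protein-coding genes. A count of 1 gene is not read as a difference from that share. In these accounts a maximum is that of the whole call, and at Smad5, Ltbp2, Gli2, Ptch1, Jag2 and Grhl3 the pSmad1/5 maximum lay outside the peak counted here. The component with a shared peak was Smad5, which encodes one of the Smads recognised by the pSmad1/5 antibody. Its pSmad1/5 peak (chr13:56715378-56717772, maximum 17) met a pSmad3 peak (chr13:56715569-56719510, maximum 11) over 2204 bases. The pSmad1/5 midpoint lay 12907 bp after a RefSeq start of the gene and 34.5% of the way through it. The pSmad3 peak was near the floor of its list, at percentile 3.05 of total signal, while the pSmad1/5 peak was at percentile 19.2. In the same list 8 genes had an ordinary pSmad1/5 peak, 7 an ordinary pSmad3 peak and 5 both. Over all protein-coding genes these shares were 18.1%, 15.6% and 7.69%.

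Target genes of the pathways gave 1 shared peak. Of 22 TGF-β targets, 1 had one (4.55%), although 2 had a pSmad1/5 peak and 7 a pSmad3 peak. Over all protein-coding genes 3.69% had a shared peak, 18.1% a pSmad1/5 peak, 15.6% a pSmad3 peak and 7.69% both. The counts of shared peaks at target genes are not read as a difference from 3.69%. The TGF-β target with a shared peak was Ltbp2, a member of the latent TGF-β binding protein family found on microfibrils. The pSmad1/5 peak (chr12:84783606-84785885, maximum 15) was 98.4% of the way through the gene and lay wholly under a pSmad3 peak (chr12:84780086-84786496, maximum 13) of 6411 bp that ran past the 3′ end. At Ltbp2 and 10 kb on either side, 4 other pSmad1/5 peaks and 2 other pSmad3 peaks did not overlap. Of 21 BMP targets, 0 had a shared peak, with 4 genes having a pSmad1/5 peak, 2 a pSmad3 peak and 1 both.

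Well known Smad targets and tooth genes were looked at one by one, within the gene and 10 kb on either side. Id1, which encodes an inhibitor of bHLH factors, Smad7, an inhibitory Smad, and Msx2, a homeobox gene, each had 1 pSmad3 peak and no pSmad1/5 peak. Msx1, the homeobox gene of dental mesenchyme, had 1 pSmad1/5 peak with a maximum of 18 and no pSmad3 peak. At 5 genes both antibodies gave peaks that did not touch. The nearest ones were 849 bp apart at the ligand gene Bmp7, 1864 bp apart at Pmepa1, whose product restrains TGF-β signalling, and 9808 bp apart at the receptor gene Notch1. They were 11321 bp apart at Gli1, a Hedgehog target, and 45730 bp apart at Smad6, an inhibitor of BMP signalling. At Ski, a corepressor of Smads, 1 pair overlapped by 1865 bases, but its pSmad1/5 midpoint lay 8009 bp outside the gene and is not counted.

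A shared peak was at 2 of 21 Hedgehog pathway genes (9.52%, against 3.69% of all protein-coding genes). The count fell to 0 when total signal had to reach the list median in both lists. It was also 0 under the lower ceilings on the maxima, which leave out stronger peaks. Those ceilings removed the pairs at Gli2 (pSmad1/5 maximum 22) and Ptch1 (pSmad3 maximum 16). Of these 21 genes, 7 had a pSmad1/5 peak, 8 a pSmad3 peak and 4 both, beside 18.1%, 15.6% and 7.69% of all protein-coding genes. Gli2, a transcription factor of the pathway, had a pSmad1/5 peak (chr1:118914397-118917267, maximum 22, percentile 82.9) that shared 2584 bases with a pSmad3 peak (chr1:118914684-118918966, maximum 14, percentile 18.9). The pSmad1/5 midpoint lay 137787 bp after a RefSeq start of Gli2 and 62.9% of the way through this gene of 220.3 kb. At Gli2 and 10 kb on either side, 1 of 5 pSmad1/5 peaks and 1 of 6 pSmad3 peaks overlapped. Ptch1, the Hedgehog receptor, had a pSmad1/5 peak (chr13:63519140-63521873, maximum 12) that shared 2084 bases with a pSmad3 peak of maximum 16, 81.3% of the way through the gene. Both genes also make up the 2 of 41 dental mesenchyme markers with a shared peak (4.88%), so the lists are not separate evidence.

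A shared peak was at 2 of 25 Notch pathway genes (8%, beside 3.69% of all protein-coding genes), with 4 peaks in all. The counts of the Notch, Wnt and Fgf lists are not read as a difference from that share. Jag2, a Notch ligand, had 2 shared peaks that were pieces of 1 call (maximum 20), sharing 2237 and 430 bases with a single pSmad3 peak (chr12:112915111-112922658, maximum 11). Lfng, a glycosyltransferase that modifies Notch, also had 2 pieces of 1 call (maximum 14), with 3530 and 101 bases under a pSmad3 peak of maximum 13. The midpoint of the second piece lay past the 3′ end of the gene, while its shared bases were inside the gene. A shared peak was at 3 of 62 Wnt pathway genes (4.84%, beside the same 3.69%). Wnt3, a ligand, had 2 shared peaks from separate calls with 2823 and 575 bases in common, and Wnt7b, another ligand, had 723 bases. Kremen1, a receptor for Dickkopf inhibitors, had 2 pieces of a call in 3 pieces, one wholly under its pSmad3 peak (4573 bases) and the other sharing 254 bases. Of 29 Fgf pathway genes, 1 had a shared peak (3.45%). It was Frs3, an adaptor of Fgf receptors, with 2278 bases in common.

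A shared peak was at 4 of 49 extracellular matrix genes (8.16%), with 19 having a pSmad1/5 peak, 15 a pSmad3 peak and 10 both. Over all protein-coding genes the shares were 3.69% for a shared peak, 18.1% for pSmad1/5, 15.6% for pSmad3 and 7.69% for both. A count of 4 genes is not read as a difference from 3.69%. Hspg2, which encodes perlecan, had 4 shared peaks from 2 calls. Their maxima were all 19, reached outside the peak for 3 of them, and they met 3 pSmad3 peaks with maxima of 14 to 16, and the common stretches were 4111, 3087, 555 and 114 bases. Fbln2, a fibulin of the basement membrane and elastic fibres, had 3 shared peaks from separate calls with maxima of 18, 16 and 14, of which 16 and 14 were reached outside the peak. The first shared 3706 bases with its pSmad3 peak, and the others (1516 and 1224 bases) lay wholly under a second one of 10443 bp. Fbln1, a related fibulin, had 1 shared peak wholly under a pSmad3 peak (2124 bases), with its midpoint 4652 bp after a RefSeq start of the gene. Col6a1, which encodes a collagen VI chain, had 1 in mid-gene that also lay wholly under its pSmad3 peak (1480 bases). The map of 6 genes shows that Gli2, Ltbp2, Hspg2 and Fbln2 also had peaks of both lists that did not overlap.

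**Figure D4:**
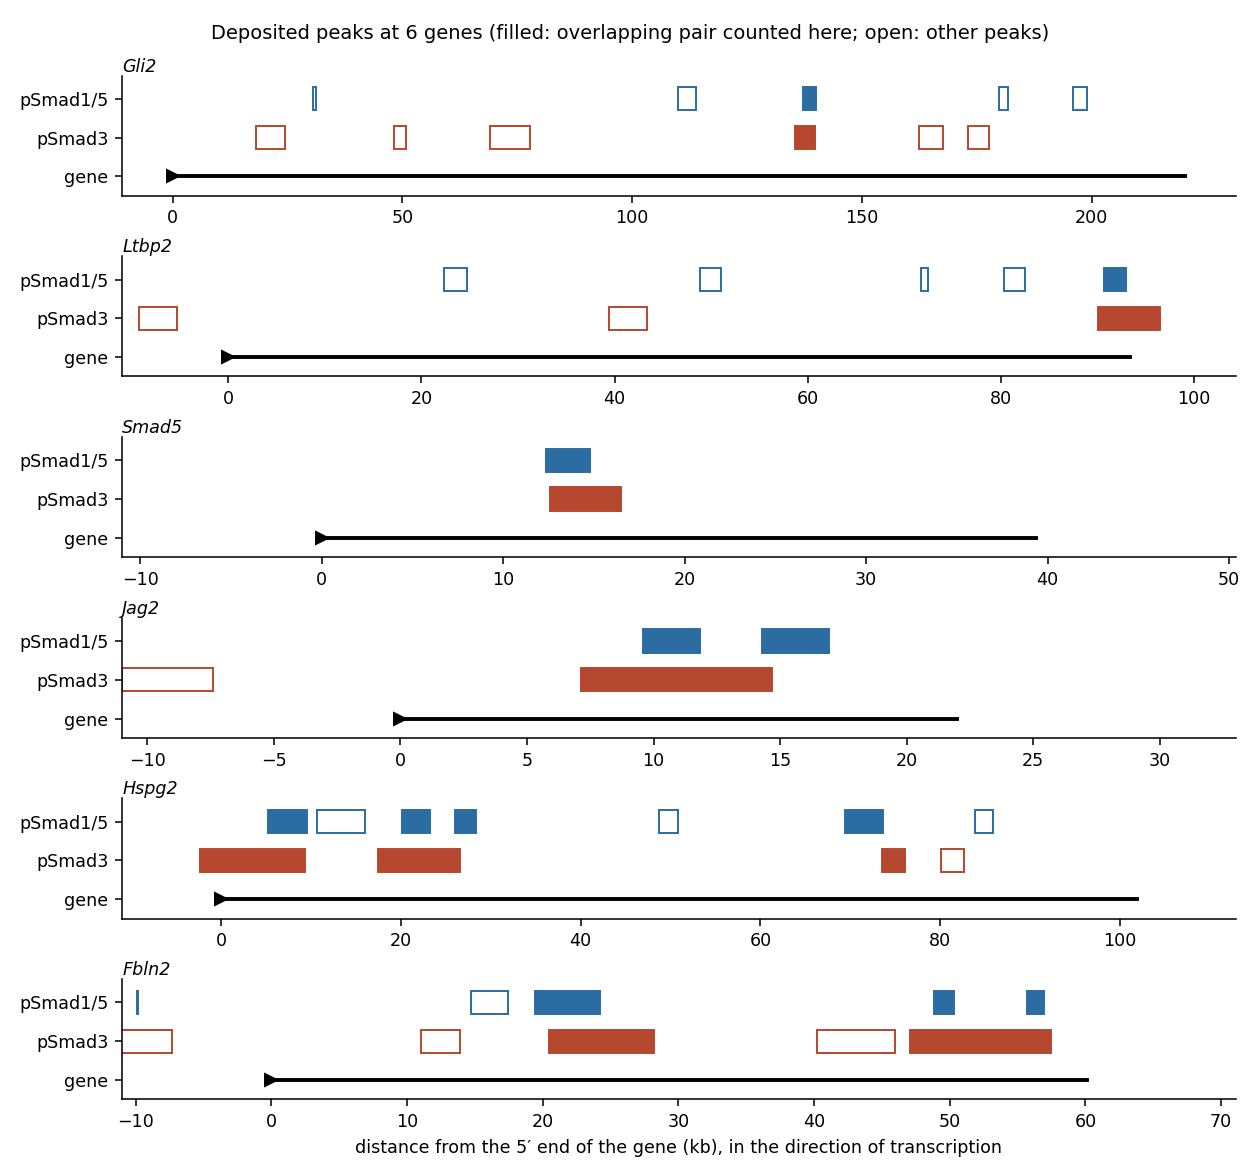
Peaks of the pSmad1/5 list (blue) and the pSmad3 list (red) at 6 genes, by distance from the 5′ end of the gene in kb in the direction of transcription, with the gene as a black line and overlapping pairs filled. Gli2 has 1 filled of 5 pSmad1/5 peaks and 1 of 6 pSmad3 peaks, Hspg2 has 4 of 7 and 3 of 4, and Smad5 has 1 pair and no other peak.

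The other lists each had 0 or 1 gene with a shared peak, beside a share of 3.69% of all protein-coding genes. On lists of this size such counts are not read as a difference from that share. Grhl3, a transcription factor of surface epithelia, was the 1 of 30 dental epithelium markers (3.33%), with 1384 bases shared by a pSmad1/5 peak of maximum 17 and a pSmad3 peak of maximum 20. Myh9, a non-muscle myosin heavy chain, was the 1 of 29 actin and adhesion genes (3.45%), with 397 shared bases. Flt4, a VEGF receptor of lymphatic endothelium, was the 1 of 22 endothelial markers (4.55%), with 947 bases. Gpi1, the glycolytic glucose-6-phosphate isomerase, was the 1 of 28 housekeeping genes (3.57%), with 1585 bases. Shared peaks were at 0 of 18 macrophage and myeloid markers, 0 of 19 neural and Schwann cell markers, 0 of 18 cartilage and muscle markers and 0 of 28 cell cycle regulators. Peak lists do not measure expression, so these markers do not show which cells were present.

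Over the 18 lists together, 19 of 503 distinct genes had a shared peak (3.78%), which is near the 3.69% of all protein-coding genes, and 69 had ordinary peaks of both antibodies. The plot of lists sets each share beside these values. The Hedgehog, Notch and matrix lists had the highest shares, each on 2 to 4 genes, and this order depended on the signal limits. With total signal at or above the list median in both lists, Hedgehog genes with a shared peak numbered 0, Notch genes 1 and matrix genes 2. With maxima of at most 16 and 13 the counts were 0, 1 and 1, while 1 TGF-β target had a shared peak under both settings. The genes of a list were not compared at equal length.

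**Figure D5:**
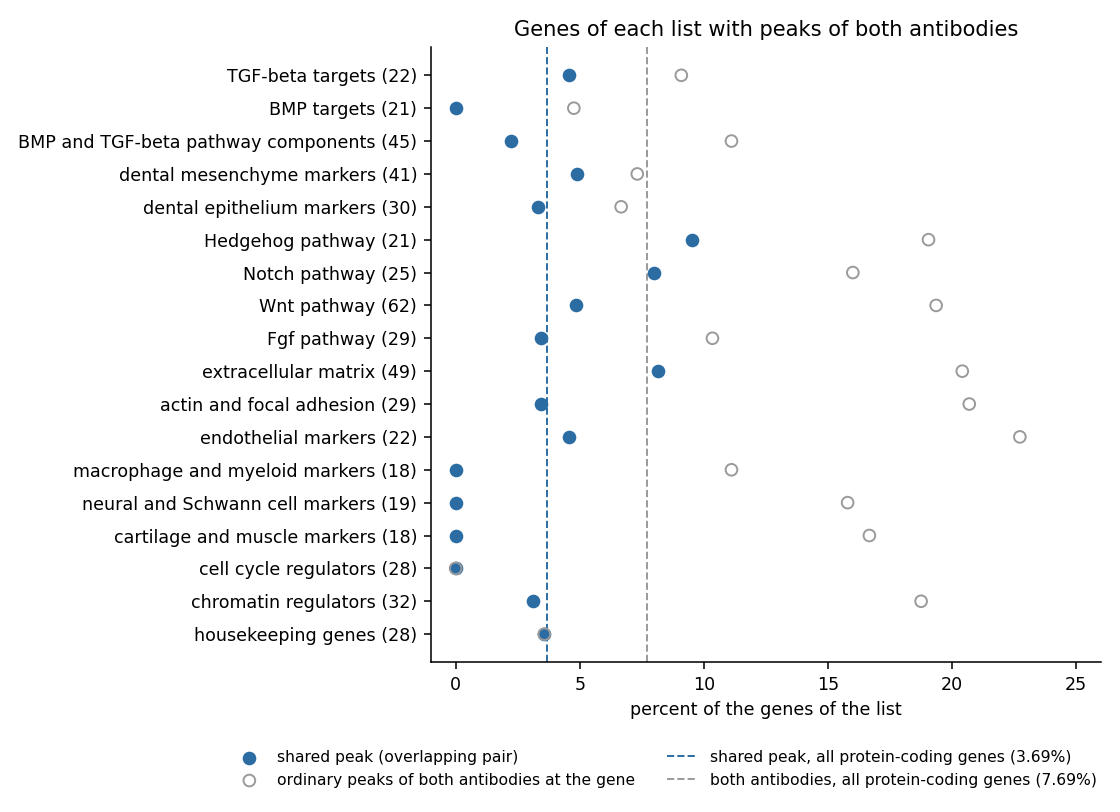
Percent of the placed genes of each list (number in brackets) with a shared peak (filled) and with ordinary peaks of both antibodies whether or not they overlap (open), beside the shares of all protein-coding genes (dashed lines at 3.69% and 7.69%). Shares of lists with a shared peak run between 2.22% and 9.52%, and 5 of 18 lists have none.

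The longest common stretches were several times the median. At the predicted gene Gm21663 the whole pSmad1/5 peak of 11100 bp (chr5:25937123-25948222, maximum 27) lay under a pSmad3 peak of 17339 bp with a maximum of 23. At the zinc finger genes Zfp981 and Zfp993, which overlap each other, the longest piece was 10708 bp, and 4 pieces of 1 call lay at a single pSmad3 peak of 25500 bp (maxima 29 and 26). Zfp936 shared 10688 bases, Speer4a 10413, Ifit1bl1, of the interferon-induced IFIT family, 9953, Ahnak2 9525 and H2-D1 8275. Gene ends inside both peaks of a pair, taken by the highest pSmad3 maxima, included those of Nxpe5, Mup-ps16, Mup5, Sprr2a1, a cornified envelope gene, and Gm6408. At Mup5 5 shared peaks were pieces of 1 call in 8 pieces with a maximum of 31. Zfp, Speer and Mup genes have close paralogs, and the treatment of reads that match several copies was not given in the sources used here. Values at these genes are therefore uncertain. By name, 49 of 1350 genes with provisional Gm or Rik names (3.63%) and 13 of 388 Zfp genes (3.35%) had a shared peak, against 697 of 18822 others (3.70%).

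The genes with the most shared peaks, counted by calls, were of 2 kinds. Gm40847 had 15 shared peaks from 6 calls within 220.5 kb on chromosome 12, with maxima of 17 to 28 for pSmad1/5 and 11 to 21 for pSmad3. Zfp993 had 9 from 4 calls over 478.6 kb. The others had maxima near the list medians, and gene length did not separate the kinds. Rbfox3, a splicing factor known as a neuronal marker, had 6 shared peaks from 5 calls over 421.8 kb, with maxima of 14 to 19 for pSmad1/5 and 11 to 14 for pSmad3. Camta1, a calmodulin-binding transcription activator, had 5 from 4 calls over 802.2 kb. Col27a1, a fibrillar collagen gene of cartilage, had 4 from 4 calls over 121.0 kb, with common stretches of 2072, 1027, 279 and 130 bases.

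The shared peaks were spread over all 19 autosomes, and their share of ordinary pSmad1/5 peaks in or at genes differed between chromosomes. It was highest on chromosome 12 (69 of 322, 21.4%), chromosome 4 (114 of 537, 21.2%) and chromosome 15 (59 of 309, 19.1%). It was lowest on chromosome 18 (11 of 159, 6.92%), chromosome 2 (58 of 540, 10.7%) and chromosome 9 (38 of 335, 11.3%). On chromosome 4 lay 11.3% of the shared peaks (9.43 to 13.4), against 10.2% (7.75 to 13.03) of those between genes and 7.75% (7.04 to 8.49) of the pSmad1/5-only peaks. The pSmad3 peaks that met them had 10.9% there, against 9.47% (8.59 to 10.4) of pSmad3-only peaks in or at genes, so the shared value overlaps that of pSmad3-only peaks. In windows of 1 Mb, 237 of 468 windows with a shared peak had 1, and 43 windows with 5 or more held 285 of the 1007 (28.3%). The fullest were on chromosome 12 at 18 to 19 Mb, with 13 shared peaks from 6 calls at Gm40847 and Zfp996, and on chromosome 17 at 13 to 14 Mb, with 12 from 4 calls around Smok2b. A window on chromosome 12 at 112 to 113 Mb held 10 from 8 calls, at Jag2, Akt1, Ahnak2, Kif26a, Aspg and 3 predicted genes. There the shared peaks were at separate genes, while in the first windows they were pieces of a few long calls.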

How the data were processed

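Each antibody had 1 list of peak regions. Per the labels, SEACR made the peaks, and the deposited columns are position, total signal (a score summed over the call), maximum signal and region of the maximum, in the authors' own coverage scaling. Per the submitters' processing notes, Bowtie2, SAMtools, bedtools, SEACR and deepTools were used with mouse build mm10. Settings, any control library and the way in which both libraries were joined were not given in the sources used here. Lists were read with Python 3.11.15 and pandas 2.3.3. Genes came from the RefSeq table of GRCm38.p6, without genes in the first 3 Mb of a chromosome. An overlap needed at least 1 bp, and the finding of overlaps and the placement at genes were checked on simulated regions. Shares carry exact 95% Clopper-Pearson intervals (scipy 1.17.1), which cover counting error only and treat pieces of 1 call as separate. There is no test between groups, since each antibody had 1 list and the rule used the signals and overlaps.

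The rule, its members and the gene lists were chosen with earlier results of these data known. Named genes were up to 4 per list by shared bases, genes at the 10 longest common stretches, the 5 with the most shared peaks, 10 with an end in both peaks and the highest pSmad3 maxima, peaks at the ceiling, and a fixed set. Alternatives covered overlap, stricter lists, ceiling, gene margin, gene type, position and pieces. Peaks on the X and Y chromosomes were left out. Some genes that the naming rule takes are not reported here.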

Additional observations from a re-analysis of the deposited data

How the results depend on the processing

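Counts of shared peaks moved most with the signal limits, since these set the membership. With total signal at or above the list median in both lists, 453 shared peaks, 364 pSmad3 peaks, 321 protein-coding genes and 6 list genes were found, with a median width of 2583 bp and a median cover (share of a peak under pSmad3 peaks) of 100%. With maxima of at most 16 and 13 there were 224 shared peaks, 215 pSmad3 peaks, 200 genes and 7 list genes, with a width of 2377.5 bp and a cover of 85.7%. When at least 50% of a peak had to lie under pSmad3 peaks, the median width was 2437.5 bp and the cover 100%. Without a gene margin, 12.4% of midpoints lay within 1 kb of a gene end. With 1 region per call the median width was 3575.5 bp. The other 32 recomputed counts, medians and shares stayed within 1.5 times or within their interval. Counts per list stayed in 43 cases and moved in 29, among them the Hedgehog genes, which numbered 0 under both signal limits. Comparisons between classes of peaks were not rerun under these settings.

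No paired analysis was possible because each antibody had 1 list for both libraries. For the same reason leaving out a library was not run. Read depth is unknown, so a peak missing from a list was not detectable by the authors' calling and is not shown to be absent. Results at repeated gene families depend on read placement, which was not examined here.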
